A study of Mus musculus with 5 samples.

Results

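The genes described here are 10 mouse genes of blood coagulation, plasminogen activation and adhesive plasma glycoproteins: F3, F7, F10, F5, F13a1, Plau, Plaur, Serpinb2, Fn1 and Thbs1. They were read from the 16 probe sets annotated to exactly 1 of these symbols, out of 34945 probe sets with 1 symbol that cover 18193 genes, and a gene's value is the mean of its probe sets. Gene expression was measured on Affymetrix arrays, 1 per sample, in 2 cell populations of female C57BL/6 mice aged 6 to 8 weeks. Brain dendritic cells (DCs) were sorted as Lin-CD45hiCD11c+ and measured on 2 arrays. Their donors had carried a subcutaneous tumour of B16-Flt3L cells, which secrete the dendritic cell growth factor Flt3 ligand, injected 12 days before harvest. Bone marrow monocytes were sorted as SSCloCD11bhi CD115+ and measured on 3 arrays, with no treatment named. Microglia and spleen DCs were not analysed here. Cell type, tissue and treatment therefore cannot be told apart. Nothing in the labels ties the arrays to separate animals, so the spread between arrays may be technical.

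Coagulation starts when tissue factor (F3) meets factor VIIa (F7), and together they activate factor X (F10), which with its cofactor factor V (F5) turns prothrombin into thrombin. Thrombin makes fibrin, and factor XIIIa, whose catalytic A subunit F13a1 encodes, cross-links it and attaches fibronectin (Fn1) to it. Fibrin is removed by plasmin, which urokinase (Plau) bound to its receptor (Plaur) activates, and the serpin PAI-2 (Serpinb2) inhibits urokinase. Monocytes and macrophages are known to make several of these proteins outside the liver, which is the main source of most clotting factors in plasma.

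Each value is a log2 number centred within its probe set. Arrays can therefore be compared for a gene, but genes cannot be compared with each other, and detection above background cannot be read. A difference is the brain DC mean less the monocyte mean, in log2 units, and its standard error (SE) comes from a limma fit over all genes. A gene is called when its limma adjusted p is under 0.05. The members were chosen from this same contrast, so their differences are given as a description and no p-value is given for them. In bulk samples, fewer cells that make a transcript and less transcript per cell cannot be told apart.

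The members did not move as one. Fn1, F13a1, F5 and F10 were far lower in brain DCs, with differences between -5.94 and -4.08, F7 (-0.52) and Thbs1 (-0.73) had small negative differences, and Plaur and Serpinb2 were higher. In F3 and Plau the groups overlapped. By the call rule 5 members were lower, 2 higher and 3 not called, where 33.8% of all 18193 genes were called, 16.9% lower and 16.9% higher. The median difference was -0.63 over the 10 members and 0.09 over all genes. The groups did not overlap in 7 members, 5 with brain DCs below and 2 with brain DCs above, where 60.2% of all genes showed no overlap, 25% below and 35.1% above. A difference below -3 was found in 4 members and in 0.363% of all genes. The contrast chose the members, so nothing is read from these counts.

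**Figure D1:**
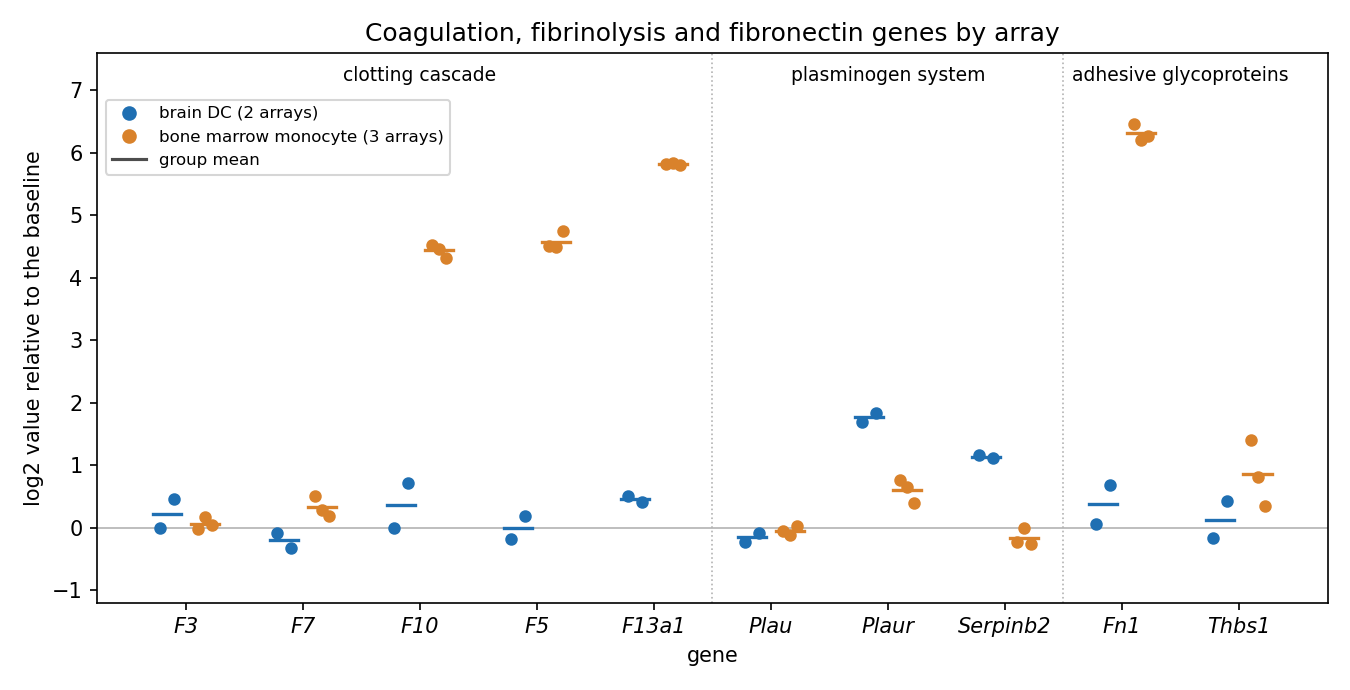
Log2 value relative to each probe set's baseline (vertical axis) for the 10 genes (horizontal axis), ordered by role. Points are arrays, 2 of brain DCs and 3 of monocytes, and short lines are group means; levels are comparable within a gene only. F10, F5, F13a1 and Fn1 lie above 4.3 in each monocyte array and below 0.72 in each brain DC array, while Plaur and Serpinb2 lie higher in brain DCs.

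Factor XIII is a transglutaminase that makes the last covalent links of a clot, and inside monocytes its A subunit is found without the B subunit. F13a1 stood at 0.51 and 0.41 in the brain DC arrays and at 5.83, 5.84 and 5.81 in the monocyte arrays. The 3 monocyte arrays were close together, with a range of 0.03, and no brain DC array came within 5.30 of them. The difference was -5.36 ± 0.12 SE (n = 2 and 3), a 41.1-fold lower value in brain DCs with rank 3 among the decreases of all genes. A single probe set measured it.

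Factor V, the cofactor of factor Xa, gave the same separation. F5 was at -0.19 and 0.18 in brain DCs and at 4.50, 4.49 and 4.74 in monocytes. Its difference was -4.58 ± 0.16 SE, a 23.9-fold lower value that ranked 7 among decreases. Both probe sets gave it, with -4.63 and -4.53.

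Factor X, the protease that forms the prothrombin-cleaving complex with factor V, was also low in brain DCs. F10 was at 0.0003 and 0.71 in brain DCs and at 4.53, 4.47 and 4.32 in monocytes. The brain DC arrays were thus farther apart from each other than the monocyte arrays, whose range was 0.21. The difference was -4.08 ± 0.21 SE, a 17.0-fold lower value that ranked 16 among decreases. Its 3 probe sets gave -4.71, -3.97 and -3.57. The one at -3.97 had the widest spread in brain DCs, with 0.74 in replicate 1 and 1.90 in replicate 2.

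Tissue factor and factor VII, the starters of the cascade, did not share the large decrease. F7 was at -0.08 and -0.32 in brain DCs and at 0.50, 0.29 and 0.18 in monocytes. The groups did not overlap, but the gap between them was 0.26, less than the range of 0.32 among the monocyte arrays. The difference was -0.52 ± 0.15 SE, or 1.44-fold. A single probe set measured F7, so the choice of probe set leaves its difference unchanged, and the fit on probe sets did not call it. Among the 12 alternative settings on genes F7 was called in 8. Dropping brain DC replicate 2 (-0.40), monocyte replicate 1 (-0.43) and, separately, monocyte replicate 2 (-0.54) ended its call, as did reading each gene from its highest probe set. F3 was at -0.01 and 0.46 in brain DCs and at -0.02, 0.18 and 0.04 in monocytes, and the groups overlapped. Its difference of 0.16 ± 0.17 SE had a 95% interval from -0.23 to 0.55, which includes no difference. Without brain DC replicate 2 the F3 difference was -0.07.

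F7 and F10 are next to each other on chromosome 8, with 11274 bases between the starts listed for them, and their differences were -0.52 and -4.08. On the far side of F10 lies Proz, the gene of the vitamin K-dependent protein Z. It was not called (0.06 ± 0.13 SE, limma adjusted p = 0.747), whereas Mcf2l, on the far side of F7, was lower by a difference of -2.49 ± 0.25 SE (limma adjusted p = 3.59e-04). Neither gene next to F10 had a difference of its size.

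The windows before the start sites of the 3 strongly lower clotting genes are shown because these genes moved together in the same arrays. RefSeq (GRCm38.p6) gave an entry for 7 of the 10 members, and each line holds the 250 bases before the first start listed, 5′ to 3′. Capitals mark matches to any of 8 motifs searched on both strands: the TATA box TATAAA, the PU.1 core GAGGAA, AP-1 TGANTCA, C/EBP TTGCNNAA, the GC box GGGCGG, EGR GCGNGGGCG, NF-kappaB as GGG, any 2 bases and TTTCC, and the E-box CACGTG.
F13a1 (chr13:37050245-37050494, strand minus): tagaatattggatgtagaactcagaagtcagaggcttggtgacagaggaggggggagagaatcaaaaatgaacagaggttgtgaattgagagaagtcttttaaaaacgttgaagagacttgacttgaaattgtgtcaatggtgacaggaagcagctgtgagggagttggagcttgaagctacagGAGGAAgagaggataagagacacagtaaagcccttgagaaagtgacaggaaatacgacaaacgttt
F5 (chr1:164151585-164151834, strand plus): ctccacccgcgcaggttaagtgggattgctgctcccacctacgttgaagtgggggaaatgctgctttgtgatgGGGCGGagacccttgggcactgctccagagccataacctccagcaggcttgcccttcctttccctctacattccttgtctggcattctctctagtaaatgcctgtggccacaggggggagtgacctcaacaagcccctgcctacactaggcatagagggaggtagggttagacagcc
F10 (chr8:13037058-13037307, strand plus): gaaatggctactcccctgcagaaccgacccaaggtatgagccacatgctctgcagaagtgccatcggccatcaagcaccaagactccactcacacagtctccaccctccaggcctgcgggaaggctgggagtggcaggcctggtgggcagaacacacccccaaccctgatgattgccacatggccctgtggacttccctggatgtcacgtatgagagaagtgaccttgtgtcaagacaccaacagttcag
These 3 windows held no motif in common. F13a1 had 1 PU.1 core, a motif found in 23.3% of 32851 RefSeq windows of the same length, F5 had 1 GC box, found in 32.7%, and F10 had none of the 8. The window of F13a1 had a GC content of 42.8%, against 57.2% for F5, 57.6% for F10 and a median of 52.4% over all windows. A match is only a match of letters, and its absence says nothing about a factor.

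Fibronectin is a large adhesive glycoprotein that binds integrins, fibrin and collagen. Fn1 stood at 0.06 and 0.69 in brain DCs and at 6.46, 6.21 and 6.27 in monocytes, the largest decrease of all 18193 genes. Every monocyte array was at least 5.52 above every brain DC array. The difference was -5.94 ± 0.20 SE, or 61.2-fold, with a 95% interval from -6.40 to -5.47. The probe sets gave -5.76 and -6.12. The monocyte arrays lay at 6.23, 6.29 and 6.27 in the first probe set, and at 6.70, 6.12 and 6.26 in the second.

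Thrombospondin 1 is a platelet and matrix glycoprotein that activates latent TGF-beta and binds CD36 and CD47. Thbs1 was at -0.17 and 0.42 in brain DCs and at 1.41, 0.81 and 0.35 in monocytes. Monocyte replicate 1 was the highest and monocyte replicate 3 lay below brain DC replicate 2, so the groups overlapped. The difference was -0.73 ± 0.31 SE, and Thbs1 was not called, although it was without monocyte replicate 3 (-0.98). The monocyte SD of 0.53 was the largest of the 10 members. One of its probe sets ranged from 0.06 to 1.79 among monocytes, the other from 0.51 to 1.03. Another probe set, annotated to both Pald1 and Thbs1 and so not used for the gene, also differed most among monocytes, with 5.42, 4.45 and 2.34, and lay at 2.52 and 2.80 in brain DCs.

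The urokinase receptor, a GPI-anchored protein that also works with integrins in cell adhesion, was higher in brain DCs. Plaur was at 1.70 and 1.84 in brain DCs and at 0.77, 0.66 and 0.39 in monocytes. The lowest brain DC array was 0.93 above the highest monocyte array. The difference was 1.16 ± 0.15 SE, or 2.24-fold, from a single probe set.

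PAI-2 is a clade B serpin, mostly kept inside the cell, that myeloid cells make when activated. Serpinb2 was at 1.16 and 1.12 in brain DCs and at -0.24, -0.01 and -0.26 in monocytes. Both brain DC arrays agreed within 0.04 and lay 1.13 above the nearest monocyte array. The difference of 1.31 ± 0.13 SE, or 2.47-fold, was the largest increase among the members. Both increases were smaller than any of the 4 large decreases.

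Urokinase itself did not separate the groups. Plau was at -0.23 and -0.08 in brain DCs and at -0.06, -0.11 and 0.02 in monocytes. All 5 arrays fell within a range of 0.25. The difference of -0.11 ± 0.13 SE had a 95% interval from -0.40 to 0.19, and the probe sets gave -0.03 and -0.19.

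The windows of the 2 higher members are shown because they stood apart from the lower ones in direction. Capitals mark the same 8 motifs. Serpinb2 and F13a1 each have another start entry that is not printed.
Plaur (chr7:24462233-24462482, strand plus): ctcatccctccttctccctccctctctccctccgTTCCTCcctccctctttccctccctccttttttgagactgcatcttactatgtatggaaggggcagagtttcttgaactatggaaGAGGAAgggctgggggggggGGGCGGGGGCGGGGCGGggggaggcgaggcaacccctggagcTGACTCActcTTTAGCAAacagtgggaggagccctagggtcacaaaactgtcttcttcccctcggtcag
Serpinb2 (chr1:107511173-107511422, strand plus): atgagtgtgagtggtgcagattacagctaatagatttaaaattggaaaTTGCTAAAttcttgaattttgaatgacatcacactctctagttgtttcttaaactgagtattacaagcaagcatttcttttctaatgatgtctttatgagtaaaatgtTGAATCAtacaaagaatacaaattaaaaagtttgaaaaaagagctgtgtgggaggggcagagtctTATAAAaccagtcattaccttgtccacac
Both windows held an AP-1 match, found in 6.75% of all windows, and a C/EBP match, found in 9.56%. The window of F3, which was not called, held 2 AP-1 matches, and those of F5, F7, F10 and F13a1 held 0. Plaur also had 3 GC boxes and 2 PU.1 cores, whereas Serpinb2 had a TATA box 29 bases before the start. An EGR match in the Plaur window overlapped the GC boxes at -111 and -105 from the start, but not the one at -100. With so few windows these matches are a description.

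**Figure D2:**
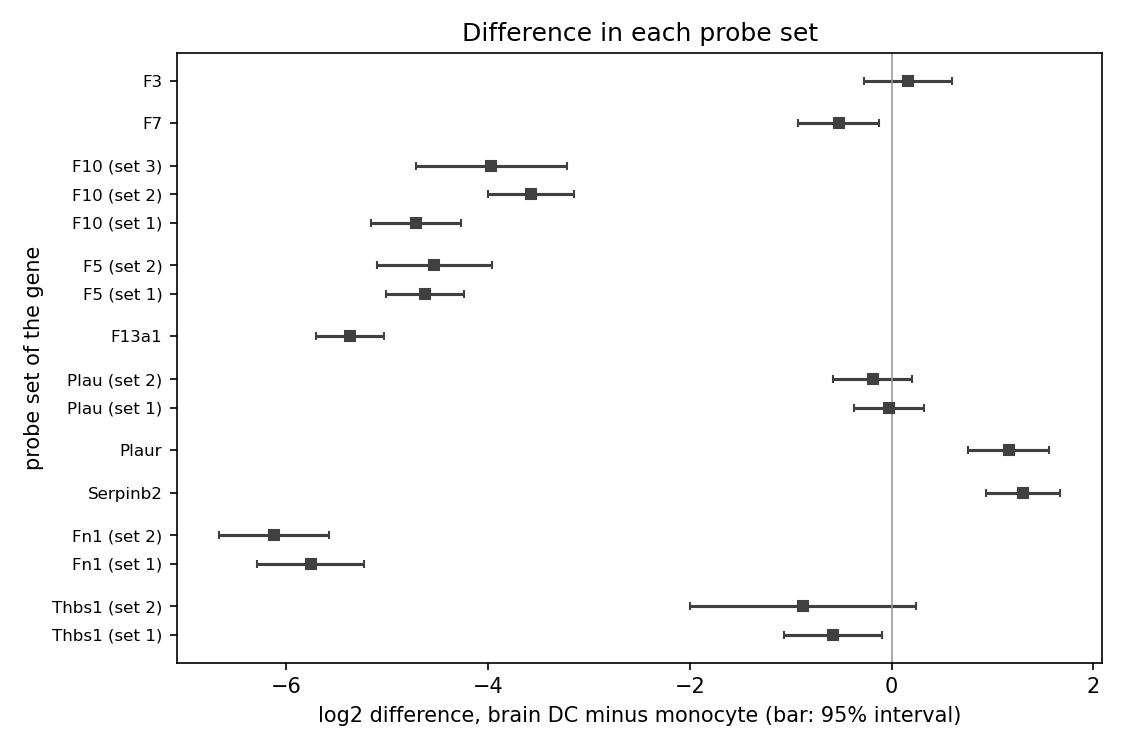
Log2 difference, brain DC minus monocyte (horizontal axis), in each of the 16 probe sets of the 10 genes (vertical axis), with bars for the 95% interval of the limma fit on probe sets (n = 2 and 3 arrays). All 8 probe sets of Fn1, F13a1, F5 and F10 lie below -3.5, those of Plaur and Serpinb2 lie above 1.1, and those of F3 and Plau lie near 0.

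The members also differed in how much the brain DC arrays varied. Brain DC replicate 2 was higher than replicate 1 in 7 of 10 members, by 0.71 in F10, 0.62 in Fn1, 0.59 in Thbs1, 0.46 in F3 and 0.37 in F5. Of all genes, 52.6% were higher in replicate 2. The median over the members was 0.26, against 0.02 over all genes. F7 (-0.24), F13a1 (-0.10) and Serpinb2 (-0.04) were lower in replicate 2. The summed log2 values of 6 classical monocyte markers were also higher in brain DC replicate 2 (10.1) than in replicate 1 (6.63), and lay between 12.1 and 15.7 in monocytes. These markers did not shift as one: Itgam rose most, from 0.25 to 1.59, and Ccr2 went the other way, from 2.39 to 1.98. Cd14, which rose from 3.41 to 3.89, was higher in brain DCs than in monocytes. The part of this shift between the brain DC arrays in the members' values was not tested. The large decreases held in either brain DC array alone: Fn1 was at -6.25 without replicate 2 and -5.62 without replicate 1, and F10 at -4.44 and -3.73.

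Genes other than the members were ranked by how near their array pattern was to that of a member. The measure was the root mean square difference over the 5 arrays, after each gene's mean was subtracted. Members were left out of this ranking, so a member may lie nearer than a gene named here. For both Fn1 and F13a1 the nearest was Cd177, a Ly6/uPAR family surface protein best known from neutrophils, at 0.24 and 0.21. Next for both were the collagenase gene Mmp8 (0.66 and 0.40) and the glycogen phosphorylase gene Pygl (0.76 and 0.45), followed by Cd300lb (0.76) and Cyp39a1 (0.81) for Fn1 and by Cyp39a1 (0.51) and Tfec (0.56) for F13a1. For Serpinb2 they were Eid3 (0.03), B230217C12Rik (0.04), Ivns1abp (0.05), Hip1r (0.06) and Rab11fip1 (0.07). With 2 groups this mainly ranks genes by the size of the same difference.

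The rest of the pathways was read from 10 lists of other genes. Of 138 listed genes 124 were measured, and 29 were higher, 16 lower and 79 not called, or 36.3% called against 33.8% of all genes, with a median difference of 0.13. A decrease beyond -3 was found in Cd177 and Lrp1 among them.

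The other clotting factors come mostly from the liver. Among the 16 measured the call was higher for 4, lower for 1 and absent for 11, with a median of 0.10. Higher were Vwf, the platelet-binding von Willebrand factor (4.48 ± 0.17 SE, limma adjusted p = 4.38e-06), F9 (1.17 ± 0.19), Gas6 (0.74 ± 0.15) and Fgg (0.58 ± 0.16). The Fgg call was lost in 3 of the 5 settings that leave out an array, those of brain DC replicate 1, monocyte replicate 2 and monocyte replicate 3. Pros1, the anticoagulant cofactor protein S, was the lower one (-1.68 ± 0.14, limma adjusted p = 1.63e-04). F2, the prothrombin gene, was at 0.05 and F13b, which encodes the B subunit of factor XIII, at 0.03, both not called. Among 9 measured natural anticoagulants, 2 were higher, 3 lower and 4 not called. Procr, the endothelial protein C receptor, was higher (3.12 ± 0.22), as was Serpinc1 (0.47 ± 0.14). Thbd, the thrombin receptor thrombomodulin, was lower (-1.86 ± 0.28), as were Tfpi (-0.75 ± 0.23) and Tfpi2 (-0.41 ± 0.12). Serpinc1, Tfpi and Tfpi2 each lost their call in at least 4 of the 5 settings that leave out an array, so that without any 1 of brain DC replicate 2 or monocyte replicates 1, 2 or 3 only 1 gene was lower. When brain DC replicate 1, or monocyte replicate 2 or 3, was left out, 1 was higher.

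Of the 3 measured protease-activated receptors, through which thrombin and factor Xa signal to cells, F2r (1.01 ± 0.29) and F2rl2 (0.50 ± 0.15) were higher and F2rl3 was at -0.28. Both calls were lost without brain DC replicate 2 or any 1 monocyte array, and without brain DC replicate 1 the call was lower for 1. The vitamin K cycle, which factors VII and X need for carboxylation, and the ER-to-Golgi receptor of factors V and VIII gave 1 higher, 2 lower and 4 not called of 7. Vkorc1, the reductase of the cycle, was higher (1.26 ± 0.18), the carboxylase gene Ggcx was at -0.29 and not called, and the cargo receptor gene Lman1 was lower (-0.99 ± 0.15), with its 5 probe sets from -2.07 to 0.53. Nqo1 was lower (-0.38 ± 0.12) but was not called in any setting that leaves out an array. The list had 1 lower gene without either brain DC array or without monocyte replicates 2 or 3.

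The plasminogen system beyond the members gave 3 higher, 1 lower and 6 uncalled genes of 10. Plat, the tissue-type activator, was higher (1.08 ± 0.12 SE, limma adjusted p = 5.36e-04), in contrast to Plau. Serpinf2, the plasmin inhibitor, was higher (0.91 ± 0.20), as was S100a10, a plasminogen receptor subunit (0.48 ± 0.13), with probe sets from -0.11 to 1.44 and thus of either sign. Without brain DC replicate 1 only 1 of the 3, Plat, was called. S100a10 kept its call in 1 of the 5 settings that leave out an array. Lrp1, which clears urokinase-inhibitor complexes together with the urokinase receptor, was lower (-3.56 ± 0.20), opposite in sign to Plaur. Plg itself was at -0.07. Among 12 measured clade B serpins, the family of Serpinb2, 3 were higher, 1 lower and 8 not called. Serpinb6b (5.41 ± 0.23), the granzyme B inhibitor gene Serpinb9 (3.15 ± 0.19) and Serpinb8 (1.82 ± 0.23) were higher, and the elastase inhibitor gene Serpinb1a was lower (-2.44 ± 0.35). Without monocyte replicate 2, 2 were lower. Serpinb8, which lies in the same gene cluster as Serpinb2, was higher too, while Serpinb7 next to Serpinb2 was at 0.50 (limma adjusted p = 0.0791).

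Partners and relatives of the adhesive members went both ways. Of 23 measured receptors of fibronectin, thrombospondin and urokinase receptor, 7 were higher, 3 lower and 13 not called. The count of 7 was 5 or 6 with an array left out. Among the higher ones, Sdc2 (0.37) kept its call in 1 of 12 settings and Sdc3 (0.49) in 6 of 12. Itga3 (0.74) lost its call when read from its highest probe set. The thrombospondin receptor gene Cd36 was higher (5.31 ± 0.18), where its ligand Thbs1 was not called, and so was Sdc4, a heparan sulfate co-receptor for fibronectin (1.86 ± 0.24). Itga5, the chain of the main fibronectin receptor, was at -0.07, Itgb1 at 0.36 and Cd47 at -0.14, all not called. The lower ones were Itgam (-2.28 ± 0.42), Itgb3 (-0.71) and Itgb2 (-0.63). The probe sets of Itgb3 gave -1.64 and 0.22, so its direction turned with the probe set read. Itgb2 lost its call without brain DC replicate 1 and without monocyte replicate 1. Itgax, at 5.02 ± 0.21, and Itgam encode CD11c and CD11b, on which the cells were sorted. Of 20 measured matrix glycoproteins 1 was higher, 4 were lower and 15 not called. The lower ones were Vcan, the proteoglycan versican (-2.50 ± 0.22, with 8 probe sets from -5.96 to -0.0024), Emilin2 (-2.31 ± 0.14), Ecm1 (-1.02 ± 0.16) and Tgfbi (-0.62 ± 0.13), which lost its call without brain DC replicate 1. Sparc was higher (1.49 ± 0.12), with probe sets from 0.0008 to 2.51. The other thrombospondin genes Thbs2 (0.02), Thbs3 (0.39) and Thbs4 (0.04) were not called. Among 7 measured transglutaminase genes, relatives of F13a1, 2 were higher, 0 lower and 5 not called. Tgm2, tissue transglutaminase, was higher (3.23 ± 0.18, with 6 probe sets from 0.12 to 5.13), in the opposite direction to F13a1, and Tgm3 was higher by 0.46 ± 0.12 but kept its call in 1 of the 5 settings that leave out an array. When brain DC replicate 1, or monocyte replicate 2 or 3, was left out, 1 was higher. Of 17 measured Ly6/uPAR fold genes, relatives of Plaur, 4 were higher, 1 lower and 12 not called. Cd177 was the lower one (-5.67 ± 0.15), and Ly6i (1.44 ± 0.18), Gpihbp1 (0.62 ± 0.13), Lypd2 (0.56 ± 0.18) and Psca (0.50 ± 0.13) were higher. Lypd2 kept its call in 4 of 12 settings, and Psca in 1 of the 5 that leave out an array. The count of 4 was 2 without brain DC replicate 1 or monocyte replicate 2.

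**Figure D3:**
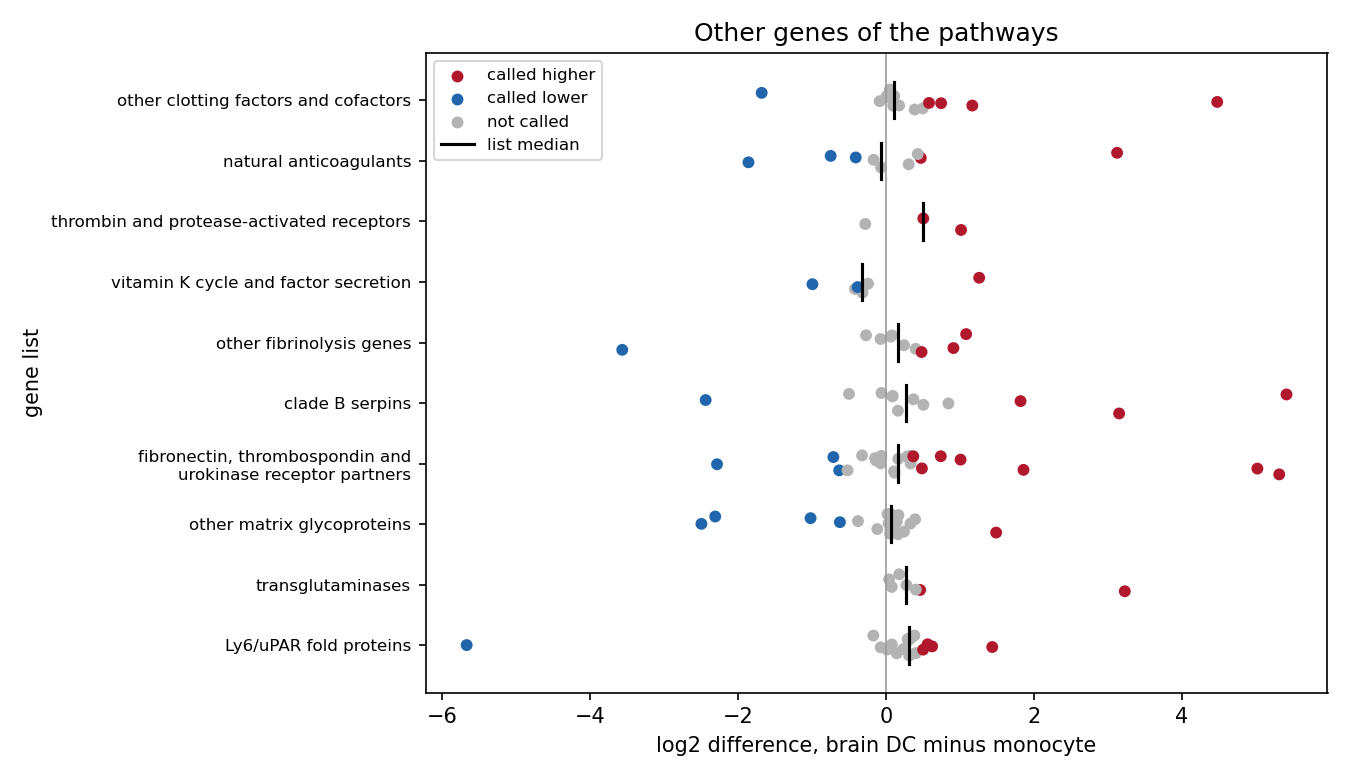
Log2 difference, brain DC minus monocyte (horizontal axis), of each measured gene in the 10 lists of other pathway genes (vertical axis; vertical jitter only separates points). Red and blue points are called higher and lower, grey points are not called, and black lines are list medians. Most genes lie near 0, with Vwf, Serpinb6b, Cd36 and Itgax far to the right and Cd177 and Lrp1 far to the left.

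Platelets carry F5, F13a1, Fn1 and Thbs1 proteins. Of their 10 measured markers 7 were higher in brain DCs, 0 lower and 3 uncalled, where 16.9% of all genes were called higher and 16.9% lower. Ppbp was at 4.79 and 4.10 in brain DCs and between -0.46 and -0.25 in monocytes, and Pf4 at 2.83 and 2.42 against -0.39 to -0.20. The summed log2 values were 13.5 and 16.7 in brain DCs and -3.69 to -1.61 in monocytes. The part of platelets in the members' values was not tested. Neutrophil markers moved partly with the members: Cd177 (-5.67), Mmp8 (-4.76), Mpo (-4.65) and Elane (-2.38) were lower, S100a9 (1.41) higher and 5 of 10 not called, with sums of 14.20 and 16.03 in brain DCs and 19.7 to 32.6 in monocytes. These markers did not vary as one among the monocyte arrays. In replicates 1, 2 and 3 Cd177 was at 6.86, 6.59 and 6.96, and Mmp8 at 4.87, 4.19 and 4.90. The primary granule genes were lowest in replicate 1, with Mpo at 1.81, 5.72 and 5.22 and Elane at 0.98, 2.50 and 2.37. This was not particular to them. Ngp (-1.18, 1.61 and 1.56), Ltf (-0.93, 0.82 and 0.495) and Camp (-0.45, 1.23 and 1.89) were also lowest there. So were S100a8 (2.94, 3.25 and 3.66) and S100a9 (1.47, 2.01 and 2.37), whereas Lcn2 was at 3.39, 3.40 and 3.21. The Mpo call was lost without either brain DC array. The part of neutrophils in the members' values was not tested. Markers of large peritoneal macrophages, which also make factors V, X and XIII, gave 2 higher (Timd4 at 2.28 and Selp at 0.96), 0 lower and 6 not called of 8, with sums of 2.50 and 2.60 in brain DCs and -1.01 to -0.59 in monocytes.

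Markers of other cell types, of the brain and elsewhere, were called to different extents, where 16.9% of all genes were called higher and 16.9% lower. All 7 measured genes of the microglial list were higher, with sums of 10.7 and 12.1 against -6.07 to -4.48. Cx3cr1 (-2.56) and Csf1r (-1.40), which microglia also express, were counted with the classical monocyte markers and were lower. The count of 7 therefore depends on how the lists were drawn. Endothelial markers gave 6 higher, 0 lower and 4 not called of 10 (2.05 and 2.23 against -5.67 to -4.58), astrocyte markers 2 higher of 8, Aldoc and Gja1 (2.72 and 4.04 against -1.32 to -1.15), and choroid plexus markers 2 higher of 6, Ttr and Clic6 (7.08 and 8.15 against -2.43 to -1.40). Of the endothelial markers called, Pecam1 and Kdr each kept their call in 1 of the 5 settings that leave out an array. Esam lost its call without brain DC replicate 1, and Cldn5, Slco1a4 and Tek kept theirs in all 12 settings. Ttr alone was at 6.996 and 6.925 in brain DCs, and Clic6 lost its call without brain DC replicate 2. Of 10 fibroblast and mural markers 8 were not called, with sums of -0.41 and 0.07 against -1.66 to -0.94. The other 2, Dcn (0.40) and Rgs5 (0.39), kept their call in 4 of 12 settings each and in 0 of the 5 that leave out an array. Liver markers gave 1 higher of 5, Apoa1 (-0.26 and 0.21 against -1.72 to -1.01), which kept its call in 1 of 12 settings. Melanocyte markers gave 1 lower of 6, Mitf, with sums of -0.83 and -0.73 against 0.17 to 1.08. Endothelium and platelets both make Vwf, endothelium also Procr, and astrocytes F3; the part of these cells in those genes' values was not tested. Of the labelled types' own markers, 8 of 8 dendritic cell markers were higher in brain DCs. Of 6 classical monocyte markers Cx3cr1, Itgam, Csf1r and Ccr2 were lower, Cd14 was higher (2.31) and Fcgr1 was not called. Itgam and Csf1r encode CD11b and CD115, on which the monocytes were sorted, and Itgax, a dendritic cell marker, encodes CD11c, on which the brain DCs were sorted. Their directions are therefore not independent of the sort. Because values are centred, none of these lists shows which markers are at background.

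**Figure D4:**
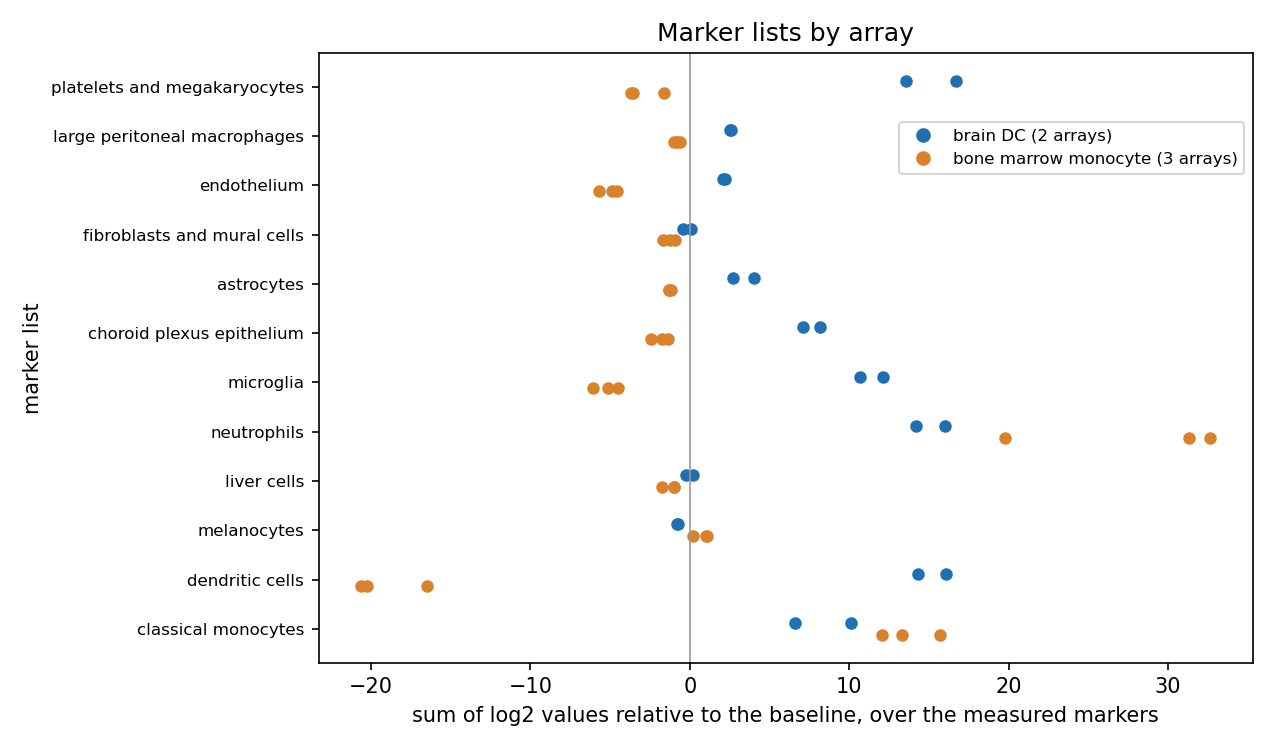
Sum of log2 values relative to the baseline over the measured markers of each cell type (horizontal axis) in each array, for 12 marker lists (vertical axis). Platelet markers sum to 13.5 and 16.7 in brain DCs and below 0 in monocytes, and neutrophil markers vary most among monocytes, from 19.7 to 32.6.

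Over the whole series the array medians lay between -0.05 and 0.00. Arrays of the same group correlated at 0.766 to 0.889 over all probe sets, and arrays of different groups at -0.01 to 0.05. These correlations are of values centred within each probe set, so they do not tell how alike the expression levels are. All 24 poly-A spike-in probe sets, for RNA added at labelling, were higher in the brain DC arrays, with a median of 2.59. Their part in the members' values was not tested.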

How the data were processed

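Expression was measured on 5 Affymetrix arrays, 2 of brain DCs and 3 of bone marrow monocytes, with cRNA labelled from 5 ug of total RNA per the labels' protocols. RMA is the method that the submitters' processing notes name. The deposited values are read as log2. That base is inferred from their range, and the values are centred within probe sets on a baseline not given in the sources used here, so no filter on low values was possible. RMA usually gives arrays like distributions, which can hide a shift of most genes, and 3 residual degrees of freedom limit the precision.

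The table held 45101 probe sets, 64 of them controls that were left out. Platform annotation gave 1 symbol for 34945, several for 932 and none for 9160. Probe sets of a symbol were averaged, and 18193 genes were fitted with limma (version 3.58.1; lmFit and eBayes, with 4.43 prior degrees of freedom) under R 4.3.3, with Benjamini-Hochberg adjustment. The members and lists were chosen with earlier results of these data known. Of 234 listed genes in pathway and marker lists 212 were measured. Named genes were all members, up to 4 called genes per list with the largest difference, and every gene behind a count of 5 or fewer. Also named were the 5 genes, members left out, nearest in array pattern to Fn1, F13a1 and the most increased member. Uncalled genes were picked with their values known. The fit was tested on simulated data. The alternatives were other probe set summaries, array scaling, a robust fit, the replicate block, a fit on probe sets and leaving out each array.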

Additional observations from a re-analysis of the deposited data

How the results depend on the processing

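Fitted on probe sets instead of genes, 5517 probe sets were higher and 6959 lower, against 3068 and 3083 genes, out of more features tested. No other count over all genes, over the members or over the pathway lists together moved by more than 1.5 times. With an array left out, genes called higher ranged from 2236 to 2447 and lower from 2371 to 2806, members called lower from 4 to 6, and members called higher stayed at 2. Pathway genes then ranged from 20 to 24 higher and 13 to 14 lower. With the replicate block, which leaves 1 residual degree of freedom, 6 members were lower, Thbs1 (-0.98) added, 2 were higher, and 2513 and 3006 genes were called. Same-numbered arrays deviated from their group means together at 0.04 and 0.09. With 2 brain DC arrays the deviations of 1 mirror those of the other, so these values cannot decide whether the numbers pair arrays. The main fit used no pairing. Monocyte replicate 3 has no partner and adds nothing to the blocked difference, which equals that without it. Among the members, Fn1, F13a1, F5, F10, Plaur and Serpinb2 were called with the same sign in all 12 settings on genes, Fn1 from -6.25 to -5.62, F13a1 from -5.41 to -5.31, F5 from -4.76 to -4.40, F10 from -4.71 to -3.73, Plaur from 1.06 to 1.38 and Serpinb2 from 1.26 to 1.46. F3 and Plau were called in 0 of 12 and Thbs1 in 2 of 12. With each gene read from its highest probe set, 4 members were lower. The contrast on these same arrays chose the members, so their counts over settings are a description and lend them no support. Centring each array on its median moved the share of higher calls from 49.9% to 45.4%. With 2 and 3 arrays, small differences such as those of F7 and F3 are at the limit of what can be resolved.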
